A study of Mus musculus with 10 samples.

Results

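Immediate early genes are switched on within minutes of a stimulus, from transcription factors that the cell already holds. The best known of them, Fos and Jun, encode AP-1, and the genes described here are 10 that lie outside AP-1, namely Egr1, Egr2, Egr3, Ier2, Ier3, Nr4a1, Klf2, Klf4, Klf6 and Myc. They were chosen by name, and they are 10 of the 19096 genes with a named probe and of the 15586 genes tested. Genes with several probes are given by the brightest, taken over the 10 columns of the authors' deposited value table. All 10 were well above background on every array.

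Lung squamous cell carcinomas (SCC) were compared with wild-type (WT) lungs, 5 arrays of each, to ask which genes change in this tumour. The SCC mice were CCSPiCreLkb1f/f, in which Cre driven by the Club Cell Secretory Protein promoter deletes the tumour suppressor Lkb1 (Stk11) in the airway epithelium, and the WT mice carried the floxed alleles without Cre (Lkb1f/f). Both groups were of strain B6.129, 13 months old and given no treatment. The RNA came from whole lung in WT and from whole lung tumour in SCC, so the arrays read a mixture of cell types, and in such bulk samples fewer cells of a type and less RNA per cell cannot be told apart.

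Marker levels matched the labels. All 8 squamous and basal cell markers (among them Krt5, Krt14 and Trp63) were higher in SCC, with mean log2 levels of 9.75 to 13.67 against 4.24 to 4.99 in WT, where Krt6a, Dsg3 and Sprr1b were above background on no array. SCC replicate 2 stood apart with 9.75, where the other 4 SCC arrays were at 13.31 or more. SCC replicate 5 had 90.2% of its probes well above background, against 71.0% to 74.5% on the other 9 arrays. Of the 3 slides, the first carried WT replicates 1 to 4 and the third SCC replicates 4 and 5. Only the second, with WT replicate 5 and SCC replicates 1 to 3, held both groups.

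The 10 genes share a mode of induction, not a protein family. Serum response factor (SRF) with its ternary complex partners drives many of them through CArG boxes, CREB through cAMP response elements (CRE), and MEF2 factors, downstream of the kinase ERK5, are the known route to Klf2. The EGR proteins are zinc finger transcription factors held in check by the NAB corepressors, NR4A1 is an orphan nuclear receptor, and the KLF proteins are zinc finger factors that in the lung are known from endothelium and epithelium. MYC promotes ribosome production, metabolism and division, with MAX as its partner.

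Promoter sequences are shown for the members in which these motifs were found in the clearest form. RefSeq's table (build GRCm38.p6) gave a window before the start of transcription for 6 of the 10 genes (Egr2, Ier3, Nr4a1, Klf2, Klf4 and Klf6) and 10 windows in all, since Egr2 has 5. The windows hold 250 bases and are written 5′ to 3′ on the gene's strand. CArG boxes, MEF2 sites and the core of the CRE (TGACG) on either strand are in capitals.
Klf2, chr8:72318812-72319061 (+): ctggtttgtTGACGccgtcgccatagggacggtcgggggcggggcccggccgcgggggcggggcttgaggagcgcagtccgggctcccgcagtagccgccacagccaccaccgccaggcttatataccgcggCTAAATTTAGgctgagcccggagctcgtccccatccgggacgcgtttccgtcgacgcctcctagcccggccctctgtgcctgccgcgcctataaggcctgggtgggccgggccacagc
Egr2, chr10:67537316-67537565 (+): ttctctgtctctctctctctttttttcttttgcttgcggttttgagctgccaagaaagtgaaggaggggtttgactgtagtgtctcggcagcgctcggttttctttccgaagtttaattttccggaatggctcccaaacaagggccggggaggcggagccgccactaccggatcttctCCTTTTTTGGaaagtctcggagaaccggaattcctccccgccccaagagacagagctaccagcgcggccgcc
Egr2, chr10:67537619-67537868 (+): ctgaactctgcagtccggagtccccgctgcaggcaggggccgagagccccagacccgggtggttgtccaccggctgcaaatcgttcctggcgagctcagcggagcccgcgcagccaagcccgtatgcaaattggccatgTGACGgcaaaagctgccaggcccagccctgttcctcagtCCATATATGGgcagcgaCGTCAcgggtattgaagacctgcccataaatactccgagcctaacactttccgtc
Nr4a1, chr15:101266596-101266845 (+): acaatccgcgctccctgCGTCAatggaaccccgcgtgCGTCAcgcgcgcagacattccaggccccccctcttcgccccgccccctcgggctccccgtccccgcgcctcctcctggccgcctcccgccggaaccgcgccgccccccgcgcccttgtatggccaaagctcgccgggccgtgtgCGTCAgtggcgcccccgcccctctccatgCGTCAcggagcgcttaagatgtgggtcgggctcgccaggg

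The Klf2 window held the MEF2 site CTAAATTTAG, 118 to 109 bases before the start. A MEF2 site was present in 0.508% of the 32851 windows of all genes, and in no other window of these 6 genes. Egr2 had a CArG box in 4 of its 5 windows. Of the 2 windows shown, the first held CCTTTTTTGG and the second CCATATATGG, both 72 to 63 bases before their start, and the windows starting at 67537620 and 67537680 overlap the second and hold its box. CArG boxes were present in 1.47% of all windows. CRE cores were present in 4 of the 6 genes. By window they were in 6 of 10, against 17.8% of all windows, but 3 of the 6 overlap. Nr4a1 held 4 cores, with the first base 233, 213, 69 and 40 bases before the start. Klf2 and Klf4 held 1 each, and the 3 overlapping windows of Egr2 held the same 2. The full CRE (TGACGTCA), which contains the core and was found in 1.55% of all windows, was in none of the 10 windows of these genes. A match of letters is not evidence that a factor binds there.

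Between SCC and WT, 4 of the 10 genes passed the test as higher in SCC (Egr1, Egr2, Ier2 and Myc) and 4 as lower (Ier3, Klf2, Klf4 and Klf6), while Egr3 and Nr4a1 did not pass. The test was limma, with Benjamini-Hochberg adjustment over all 30374 tested probes and a threshold of adjusted p below 0.05. Of all 15586 tested genes, 25.5% passed as higher and 28.4% as lower, so much of the transcriptome differed between tumour and lung. Which of the directions held more genes turned with scaling to the 75th percentile, where 4304 were higher and 4061 lower, compared with 3968 and 4434 here. With a difference of at least 2-fold added, Egr2 and Myc remained as higher, where 11.6% of all genes did, and Klf2 as lower, where 13.4% did. The direction of Klf2 depends on the probe, as given below, and with the next brightest probe of each gene that has one, 5 genes passed as higher, 3 as lower and 2 with at least 2-fold difference. For 7 of the 10 genes the 5 SCC values lay wholly above or wholly below the 5 WT values, which held for 41.2% of all genes. The median difference over the 10 genes was -0.32 log2 units, beside -0.038 over all tested genes, which became 0.035 with scaling to the 75th percentile. It was 0.091 with the dimmer Klf2 probe, -0.16 without SCC replicate 5 and -0.12 when arrays were scaled to their 75th percentile, so it gives no direction for the 10 genes together.

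**Figure D1:**
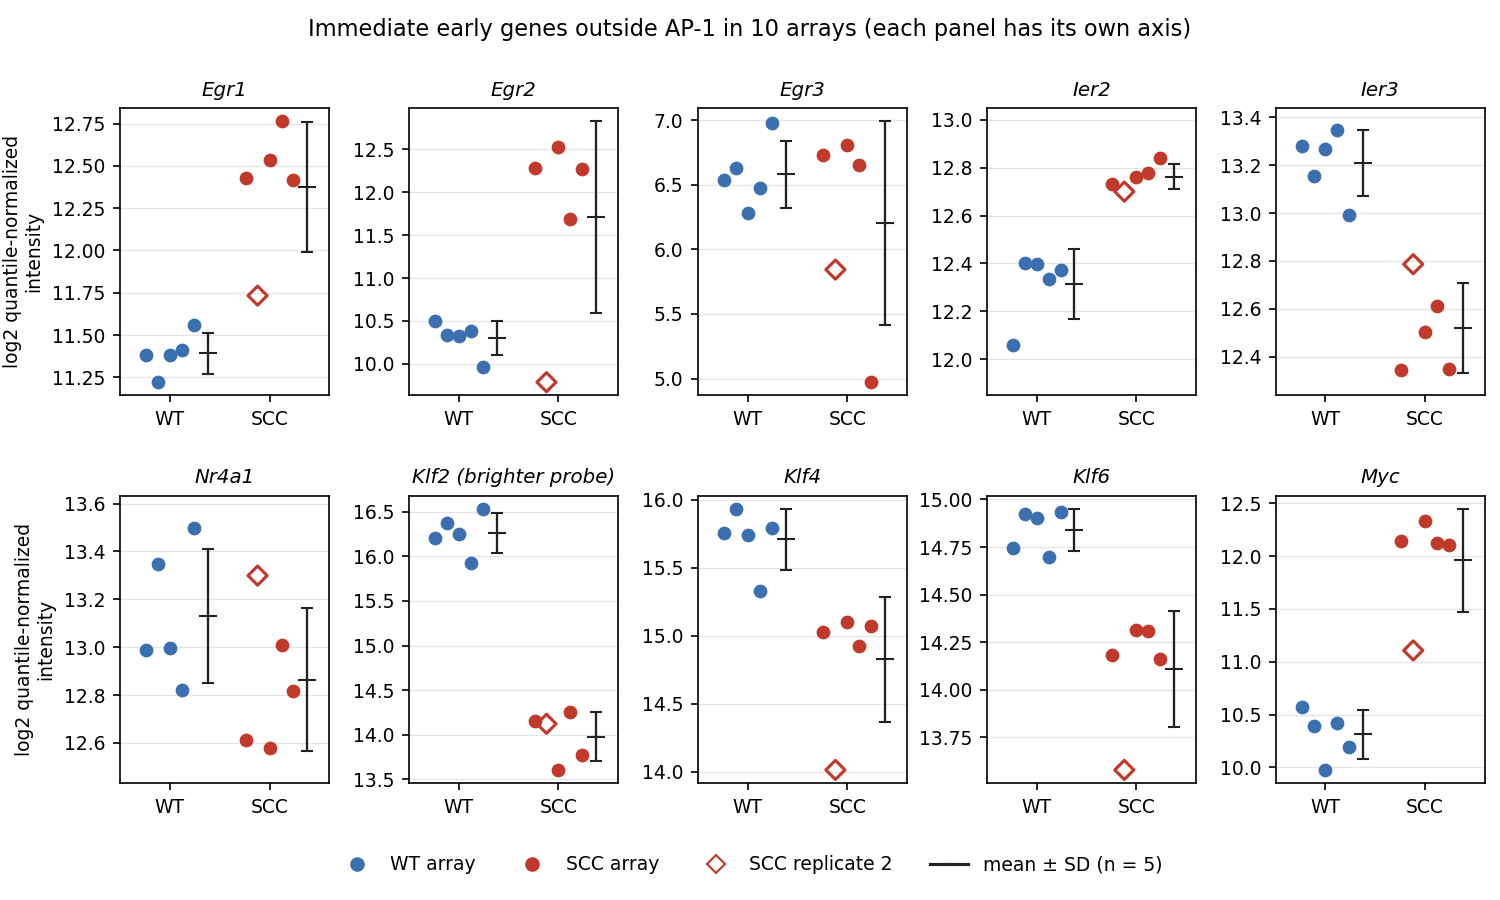
Log2 quantile-normalized intensity (vertical axes, 1 scale per panel) of the 10 genes on the 5 WT and the 5 SCC arrays, 1 point per array, with the mean and SD of each group. SCC replicate 2 (open diamond) has the lowest SCC value of Egr1, Egr2, Ier2, Klf4, Klf6 and Myc, and Klf2 is drawn with its brighter probe, whose direction its dimmer probe does not share.

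Of the 3 EGR genes, Egr1 and Egr2 passed as higher and Egr3 did not pass. Egr1, which links growth factor and stress signals to later gene expression, had log2 levels of 11.38, 11.22, 11.38, 11.41 and 11.56 in WT replicates 1 to 5. In SCC replicates 1 to 5 it had 12.43, 11.73, 12.54, 12.76 and 12.41. Every SCC array was above every WT array, and SCC replicate 2 was nearest to the WT range. The difference was 0.98 log2 units (SE 0.18, 95% interval 0.59 to 1.38, adjusted p = 0.0014), which is 1.98-fold and thus just short of the 2-fold threshold. Without SCC replicate 2 it was 1.15.

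Egr2, known from myelinating Schwann cells and from activated lymphocytes and macrophages, had log2 levels of 10.50, 10.34, 10.32, 10.39 and 9.97 in WT replicates 1 to 5. The SCC replicates 1 to 5 had 12.28, 9.79, 12.52, 11.69 and 12.26. Replicates 1, 3, 4 and 5 of SCC were above every WT array, while SCC replicate 2 was below all of them, so the groups overlapped. The difference was 1.40 log2 units (SE 0.46, 95% interval 0.37 to 2.44), with an adjusted p of 0.030 and an exact two-sided permutation p of 0.0476. The call was near the threshold. It was kept when WT replicate 1 or SCC replicate 2 was left out and lost when any of the other 8 arrays was, with adjusted p values of 0.054 to 0.071 in those 8 fits. Without SCC replicate 2 the difference was 1.89 (adjusted p = 2.52e-05).

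Egr3, a paralogue that acts with Egr2 in lymphocytes, was dim. Its log2 levels were 6.54, 6.63, 6.28, 6.47 and 6.98 in WT replicates 1 to 5. They were 6.73, 5.84, 6.81, 6.66 and 4.97 in SCC replicates 1 to 5. SCC replicates 1, 3 and 4 lay within the WT range, and only SCC replicates 2 and 5, the arrays that stood apart, were below it. The difference of -0.38 (95% interval -1.14 to 0.39) did not pass (adjusted p = 0.38), and without both of these arrays it was 0.16. A second Egr3 probe was well above background on 1 SCC array and on no WT array, and was not tested.

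The IER genes moved in opposite directions. Ier2, which encodes a small nuclear protein of the growth factor response, had log2 levels of 12.06, 12.40, 12.40, 12.34 and 12.37 in WT replicates 1 to 5. In SCC replicates 1 to 5 they were 12.73, 12.70, 12.76, 12.78 and 12.84. The SCC arrays lay close together and above every WT array, and SCC replicate 2 did not stand apart here. The difference was small, 0.45 log2 units (SE 0.090, 95% interval 0.25 to 0.65, adjusted p = 0.0026), or 1.36-fold.

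Ier3, a target of NF-kappaB and p53 that affects survival and ERK signalling, was lower in SCC. The log2 levels were 13.28, 13.16, 13.27, 13.35 and 12.99 in WT replicates 1 to 5. They were 12.35, 12.79, 12.51, 12.61 and 12.35 in SCC replicates 1 to 5. All SCC arrays were below all WT arrays, with SCC replicate 2 the highest of them. The difference was -0.69 (SE 0.11, 95% interval -0.94 to -0.43, adjusted p = 0.00089).

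Nr4a1, induced by many stimuli including T cell receptor signals, did not pass the test. Its log2 levels were 12.99, 13.35, 13.00, 12.82 and 13.50 in WT replicates 1 to 5. They were 12.61, 13.30, 12.58, 13.01 and 12.82 in SCC replicates 1 to 5. The groups overlapped, and SCC replicate 2 was the highest SCC array. The difference was -0.27 with a 95% interval of -0.66 to 0.13 (adjusted p = 0.24, exact permutation p = 0.18). Without WT replicate 5 it was -0.17, and with each array left out in turn it lay between -0.38 and -0.17.

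For Klf2, a factor of quiescent endothelium and of resting T cells, the 2 probes on the array gave opposite results. The brighter probe had log2 levels of 16.20, 16.38, 16.25, 15.93 and 16.53 in WT replicates 1 to 5. It had 14.15, 14.12, 13.61, 14.25 and 13.77 in SCC replicates 1 to 5. All SCC arrays were below all WT arrays. The difference, the largest among the 10 genes, was -2.28 (SE 0.16, 95% interval -2.63 to -1.92, adjusted p = 7.2e-06), or 4.85-fold.

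The dimmer Klf2 probe, which the files assign to the same RefSeq transcript, had log2 levels of 13.87, 14.30, 14.50, 14.48 and 14.52 in WT replicates 1 to 5. It had 15.16, 14.80, 15.20, 15.36 and 15.59 in SCC replicates 1 to 5. Here all SCC arrays were above all WT arrays, and the difference was 0.89 (SE 0.17, 95% interval 0.50 to 1.28, adjusted p = 0.0023). Within each array, the brighter probe minus the dimmer one was 1.45 to 2.33 log2 units in WT and -1.82 to -0.67 in SCC. The rule that represents a gene by its brighter probe thus sets the direction of Klf2, and its place among the genes lower in SCC rests on that rule. Why the probes differ was not tested.

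**Figure D2:**
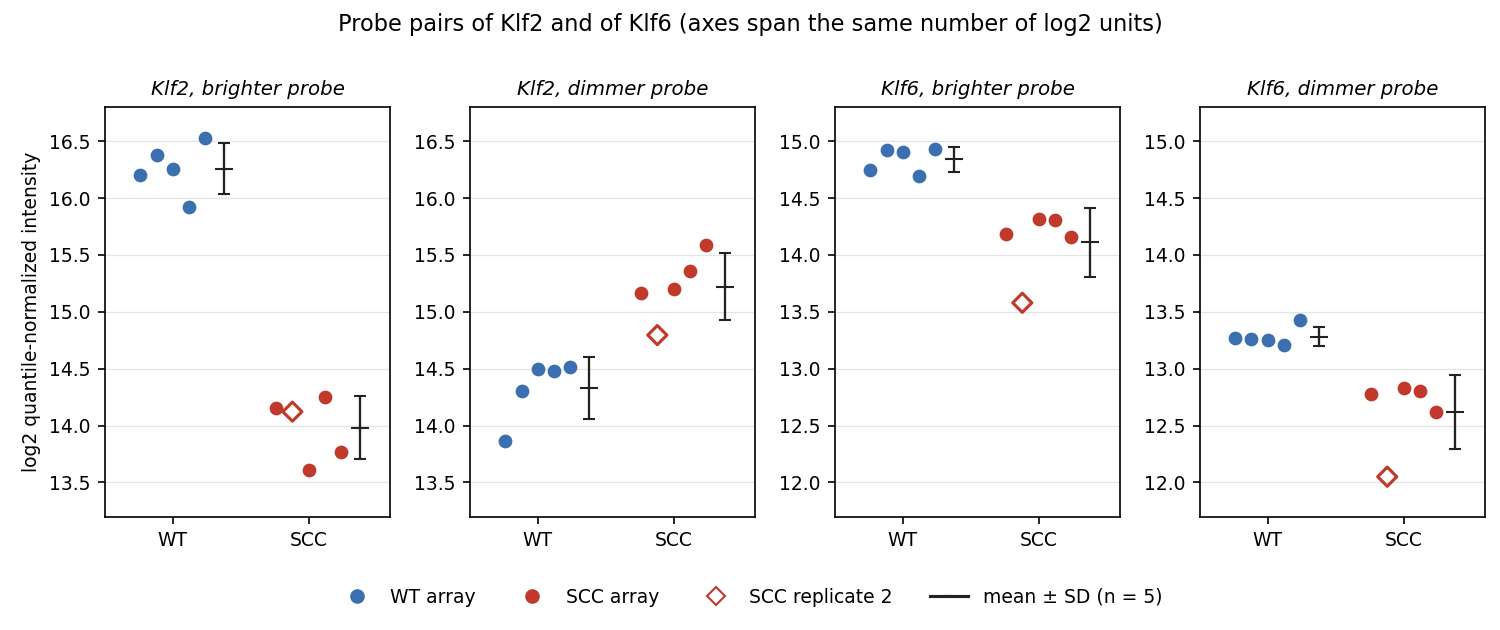
Log2 quantile-normalized intensity (vertical axes, the same span in each panel) of the 2 probes of Klf2 and the 2 of Klf6 on each array, with group means and SDs. The brighter Klf2 probe is lower in all 5 SCC arrays and the dimmer one higher in all 5, while both Klf6 probes are lower in all 5 SCC arrays.

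Klf4, which drives epithelial differentiation and is also a vascular factor, had 1 probe. Its log2 levels were 15.76, 15.93, 15.74, 15.33 and 15.79 in WT replicates 1 to 5. They were 15.03, 14.01, 15.10, 14.93 and 15.07 in SCC replicates 1 to 5. All SCC arrays were lower than all WT arrays, and SCC replicate 2 was well below the other SCC arrays. The difference was -0.88 (SE 0.22, 95% interval -1.37 to -0.40, adjusted p = 0.0077), and without SCC replicate 2 it was -0.68 (adjusted p = 0.0012).

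Klf6, an injury-induced gene with reported tumour suppressor activity, had log2 levels of 14.74, 14.92, 14.90, 14.70 and 14.94 in WT replicates 1 to 5. The SCC replicates 1 to 5 had 14.18, 13.58, 14.31, 14.31 and 14.16. As for Klf4, the groups did not overlap and SCC replicate 2 was the lowest array. The difference was -0.73 (SE 0.15, 95% interval -1.06 to -0.40, adjusted p = 0.0026). The second Klf6 probe fell by 0.67 log2 units (adjusted p = 0.0051), also without overlap.

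Myc was higher in SCC by all 3 of its probes. The brightest had log2 levels of 10.57, 10.40, 9.98, 10.42 and 10.20 in WT replicates 1 to 5. It had 12.14, 11.11, 12.33, 12.13 and 12.10 in SCC replicates 1 to 5. Every SCC array was above every WT array, and SCC replicate 2 lay between the WT range and the other SCC arrays. The difference was 1.65 log2 units (SE 0.23, 95% interval 1.14 to 2.16, adjusted p = 0.00029), or 3.14-fold, and without SCC replicate 2 it was 1.87. The other probes differed by 1.65 (adjusted p = 0.00029) and by 1.26 (adjusted p = 0.00053).

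Slide and group were largely confounded, which limits all of these comparisons. Within the second slide, with 1 WT array against SCC replicates 1 to 3, every one of the 10 genes had the direction given above. The differences there were 0.67 for Egr1, 1.56 for Egr2, 0.36 for Ier2 and 1.66 for Myc. They were -0.45 for Ier3, -2.57 for the brighter Klf2 probe, -1.08 for Klf4 and -0.91 for Klf6, and 0.54 for the dimmer Klf2 probe. Egr3 differed by -0.52 and Nr4a1 by -0.67 there. In the fit with slide as a block, which rests on this slide, only Klf2 by its brighter probe (adjusted p = 0.0042) and Myc by its brightest probe (adjusted p = 0.049) passed, while the other 2 Myc probes did not (adjusted p = 0.054 and 0.062). In that fit the adjusted p was 0.072 for Klf6, 0.13 for Klf4, 0.19 for Egr1, 0.20 for Ier3, 0.22 for Ier2 and 0.29 for Egr2.

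**Figure D3:**
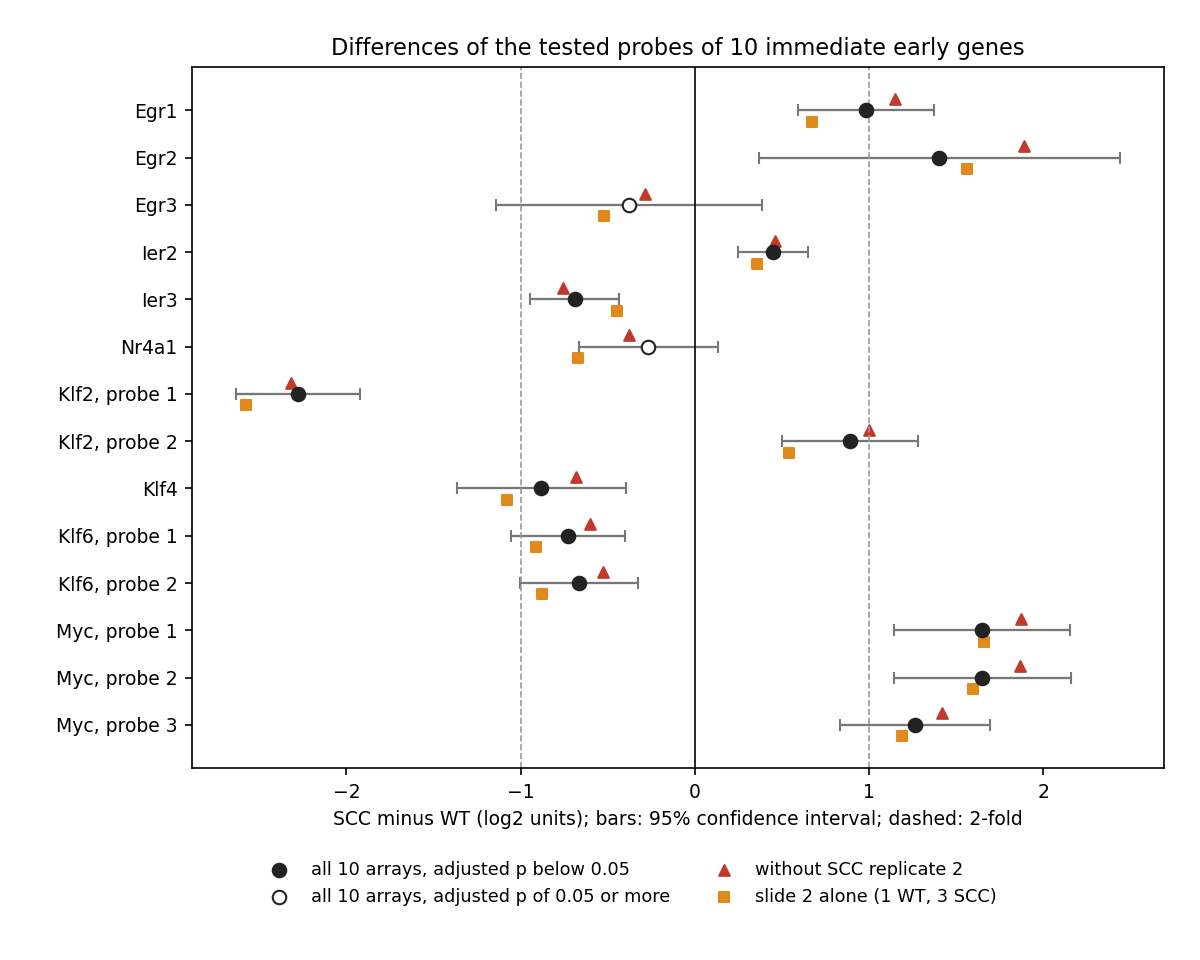
SCC minus WT in log2 units (horizontal axis) for the 14 tested probes of the 10 genes, with the 95% interval over all 10 arrays (circles, filled where the adjusted p is below 0.05), the value without SCC replicate 2 (triangles) and that of the second slide alone (squares). All 3 values lie on the same side of 0 for every probe, and the Klf2 probes lie on opposite sides.

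Markers of other cell types also differed between the groups. All 12 endothelial markers (among them Pecam1, Cdh5 and Cldn5) were lower in SCC, with mean log2 levels of 11.18 to 12.27 in SCC against 13.60 to 13.73 in WT. T cell markers were lower for 4 of 6 tested genes (7.41 to 7.87 against 8.43 to 9.16) and B cell markers for 4 of 4 (7.82 to 8.35 against 9.75 to 10.44). Smooth muscle and pericyte markers were lower for 5 of 7 (11.18 to 11.84 against 11.97 to 12.31). All 12 endothelial markers were still well above background on every SCC array. The part of these cells in the lower levels of Klf4, Klf6, Ier3 and the brighter Klf2 probe was not tested.

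Proliferation markers were higher for 7 of 8 genes, with levels of 9.70 to 11.00 in SCC against 8.19 to 8.94 in WT. Neutrophil markers were higher for 5 of 8 tested (10.82 to 12.99 against 9.88 to 10.65) and for 3 without SCC replicate 5. That separation rested on Ltf, which encodes the iron-binding protein lactoferrin and was at 18.10 to 18.29 on the SCC arrays against 8.26 to 9.81 in WT. Over the other 7 markers, a subset set apart after the values were seen, 4 SCC arrays were at 12.09 to 12.24 against 9.89 to 10.81 in WT, and SCC replicate 2, at 9.76, was below every WT array. Macrophage markers were higher for 3 of 7 and lower for 2 (12.45 to 13.40 against 12.32 to 12.88). Their part in the higher levels of Egr1, Egr2, Ier2 and Myc was not tested. Each of these 3 lists was lowest, within SCC, in replicate 2, as were Egr1, Egr2, Ier2 and Myc. Of the remaining lists, 4 of 6 alveolar type 2 markers, 4 of 5 alveolar type 1 markers, 3 of 3 club cell markers, 1 of 5 ciliated cell markers, 3 of 6 fibroblast markers and 5 of 6 cardiac muscle markers were lower, and 1 alveolar type 1 and 2 fibroblast markers were higher. Without SCC replicate 5, 1 club cell marker and no ciliated cell marker was lower.

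**Figure D4:**
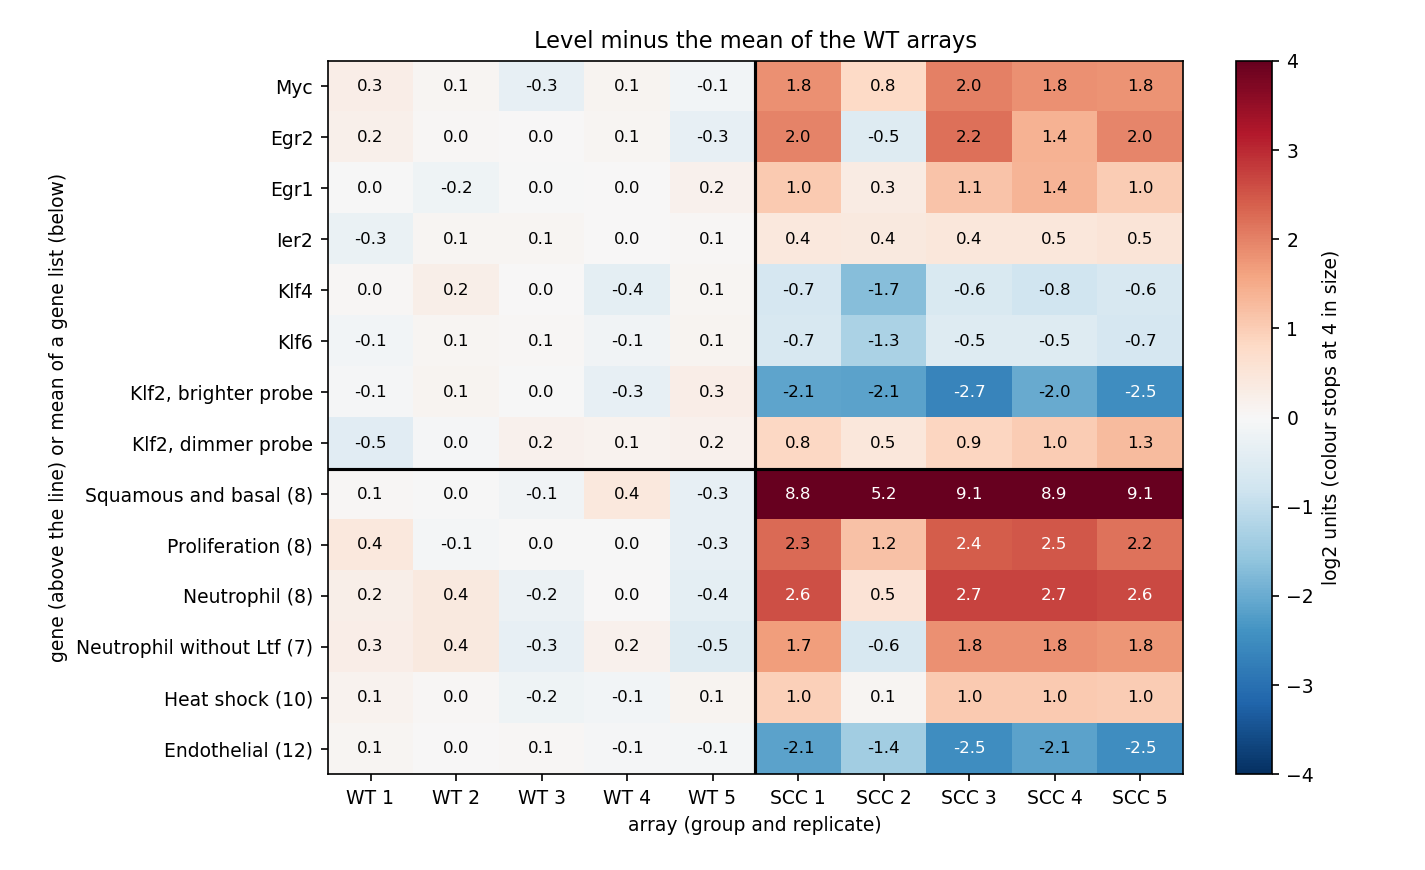
Log2 level minus the mean of the 5 WT arrays (colour and printed value) for 7 of the genes, Klf2 by both probes, and for the mean of 5 gene lists, the neutrophil list also without Ltf, on each of the 10 arrays. SCC replicate 2 is nearer to WT than the other SCC arrays for Myc, Egr1, Ier2, the dimmer Klf2 probe and the 5 full lists, is below the WT mean for Egr2 and for the neutrophil list without Ltf, and is farthest below WT for Klf4 and Klf6.

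Further immediate early genes were examined as a list of 43, of which 40 were tested. Of these, 16 were higher in SCC, 7 were lower and 17 did not pass, with a median difference of 0.29. The largest positive differences were those of Arc, a synaptic gene (4.51), Atf3, a stress-induced transcription factor (2.20), and Nfkbiz, a nuclear NF-kappaB regulator (2.11). Arc and Atf3 varied between the SCC arrays (SD 1.95 and 1.44, against 0.21 for each in WT). The largest negative differences were those of the matricellular genes Ccn1 (-1.26) and Ccn2 (-1.14). Next came that of the NF-kappaB inhibitor Nfkbia (-1.09), close to that of the GTPase gene Rhob (-1.09). Of the relatives of the 10 genes, Nr4a2, a paralogue of Nr4a1, was higher by 1.56 (adjusted p = 0.0011), Ier5 by 0.60 (adjusted p = 0.015) and Ier5l by 1.15 (adjusted p = 4.8e-05). Klf10 differed by -0.011 and did not pass (adjusted p = 0.95), and Egr4 and Nr4a3 were not tested. Without SCC replicate 2, 20 of the 40 were higher and 8 lower, and with slide as a block 5 and 3.

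Among the 7 AP-1 genes, 4 were higher (Fosl1 by 3.09, Fosl2 by 1.76, Junb by 1.04 and Fos by 0.86) and 2 lower (Jun, -1.67, and Jund, -0.25), of which 1 passed as lower with scaling to the 75th percentile. The Fosl1 probe was well above background on 1 of the 5 WT arrays (WT mean 3.78, SD 0.755), so the size of its difference is uncertain. Of 10 heat shock genes, which answer protein damage rather than growth factors, 6 were higher and 1 lower, the latter not with scaling to the 75th percentile, and with slide as a block 1 was higher. Hspa1b (2.84), Hspa1a (2.21) and Hsph1 (0.95) had the largest positive differences, and Hsp90aa1 was lower (-0.35). The mean heat shock level was 14.22 to 14.31 in 4 SCC arrays, while SCC replicate 2, at 13.34, lay within the WT range of 13.09 to 13.39.

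Of 23 tested regulators of immediate early transcription, 7 were higher and 7 lower, beside 25.5% and 28.4% of all tested genes. The regulators' median difference of 0.0020 had no stable sign, being 0.050 without SCC replicate 2 and -0.013 without SCC replicate 5. Srf itself differed by -0.22 and did not pass (adjusted p = 0.078). Map2k1, which encodes the ERK kinase MEK1 (0.96), Crem, a relative of CREB (0.81), and Mef2d (0.72) had the largest positive differences. The EGR corepressor gene Nab2 was higher by 0.64. Creb1, which encodes CREB, differed by -0.60 (adjusted p = 0.00029) and Mapk7, which encodes ERK5, by -0.24 (adjusted p = 0.034). Mef2c (-1.52), Mef2a (-1.34) and Rps6ka5, which encodes the kinase MSK1 (-0.69), had the largest negative differences among the regulators that passed.

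Of 13 tested KLF genes outside the 10, 7 were lower and 3 higher, with a median of -0.47, and with slide as a block 3 were lower and 1 higher. Klf15 (-2.22), Klf12 (-2.03) and Klf7 (-1.57) had the largest negative differences. The epithelial factor Klf5 was higher by 2.35, followed by Klf17 (0.97, its probe well above background on 1 WT array) and Klf3 (0.58). Of 6 genes known as KLF2 targets in endothelium and T cells, 5 were lower, among them Thbd (thrombomodulin, -2.70), the sphingosine phosphate receptor gene S1pr1 (-2.42) and the chemokine receptor gene Ccr7 (-1.99). Nos3, the endothelial nitric oxide synthase gene, was at 9.25 in SCC and 9.23 in WT and did not pass. Several of these genes are expressed mainly in endothelium or lymphocytes, whose markers were also lower. The part of these cells in the differences of the KLF2 targets was not tested.

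Of 19 tested genes known as MYC targets, 14 were higher, none was lower and 5 did not pass, with a median of 0.58. With slide as a block 3 of them were higher. Rcc1, a regulator of nuclear transport and mitosis (1.17), Ldha, lactate dehydrogenase (1.16), and Apex1, a DNA repair enzyme (1.06), had the largest differences. Of 13 MYC family members and partners, 3 were higher and 4 lower, beside 25.5% and 28.4% of all tested genes. The higher ones were Mxd1 (2.61), Mxd3 (2.01) and Mlx (0.84). The lower ones were led by Mlxipl (-1.51), Mxd4 (-0.91) and Mga (-0.58). Mxd1 was at 10.95 to 14.80 on the SCC arrays against 11.06 to 11.37 in WT, so its groups overlapped. MXD proteins compete with MYC for MAX. Max differed by -0.15 (adjusted p = 0.58).

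**Figure D5:**
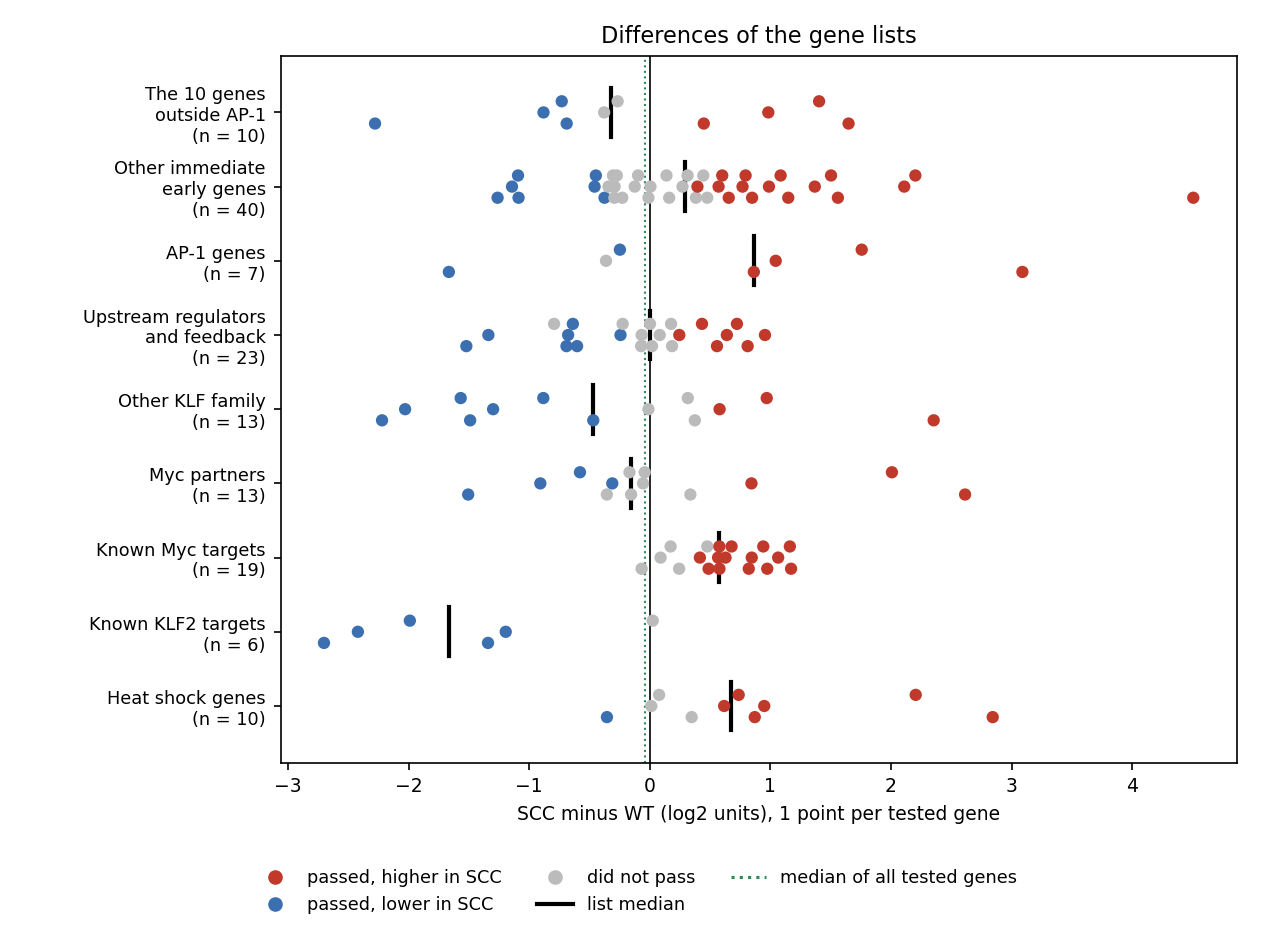
SCC minus WT in log2 units (horizontal axis), 1 point per tested gene, for the 10 genes and 8 further gene lists, coloured where the adjusted p is below 0.05, with each list's median. The medians run from -1.67 for the known KLF2 targets to 0.86 for the AP-1 genes, and the 10 genes, with Klf2 by its brighter probe, spread to both sides of the median of all genes.

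For the 3 genes that passed with at least 2-fold difference, the tested genes with the nearest profile over the 10 arrays were found by the root mean square distance of log2 levels centred on each gene's mean. Nearest to the brighter Klf2 probe were Afap1l1 (0.19 log2 units) and Csgalnact1 (0.20). Nearest to Egr2 were Batf3 and Speg (both 0.14), and nearest to Myc were the replication genes Pole (0.091) and Mcm5 (0.10).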

How the data were processed

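Each of 10 mouse RNA samples was measured on 1 Agilent whole-genome array in 1 colour, and groups and replicate numbers were read from the sample titles. Per the file headers, the authors extracted the scans with Agilent Feature Extraction 12.0.0.7, and the deposited scanner files hold a background-subtracted intensity for each spot. The authors' deposited table holds log2 values, which matched the quantile-normalized scanner intensities (r of at least 0.9999 on every array) in scale and direction, without centring (each column's median was 7.2). The array design refers to build mm9, while gene names and promoter windows came from RefSeq tables of GRCm38.p6, so probes have no coordinates here. Of 41174 probes, 28223 (68.5%) were named.

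Control spots and outlier spots were removed and spots of a probe averaged. As in the study's methods, values were quantile-normalized between arrays and on the log2 scale. No spot was saturated, and 113 probes lacked a value on at least 1 array. A probe was tested if it was well above background (at least 0.5 of its spots) on at least 4 of 5 arrays of a group. Every difference is SCC minus WT in log2 units. Fits used limma 3.58.1 under R 4.3.3, without covariates, and p-values were adjusted by Benjamini-Hochberg over 30374 tested probes. The exact permutation test over the arrays can reach a p of 0.00794 at the lowest. The fit was tested on simulated data, and motifs were searched with Python 3.11.15.

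The genes and lists were chosen with earlier results of these data known, so no list is independent evidence. From each pathway list the text names up to 3 genes with the largest positive and up to 3 with the largest negative difference that passed, and for each of the 10 genes that passed with at least 2-fold difference the 2 nearest profiles. Fos, Rhob, Nr4a2, Ier5, Ier5l, Klf10, Nab2, Creb1, Mapk7, Srf, Nos3, Max, Fosb, Tafa3 and Hilpda were added after their values were seen. So were the marker genes given as examples. The labels do not say that samples of a group came from separate mice, so p-values measure the spread between these samples, and their number limits the precision. Same-numbered samples did not deviate together (correlations of -0.099 to 0.009). Alternatives were scaling to the 75th percentile, the deposited log2 table, normexp (offset 50), other filters, replicate and slide blocks, array weights, the methods' t-test (for 2 groups the same as the one-way analysis of variance that the methods name, with Benjamini-Hochberg adjustment added here), other probes and leaving out arrays. List counts without SCC replicate 2 or 5, with slide as a block and under the other scaling were added after seeing the data.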

Additional observations from a re-analysis of the deposited data

Results flagged for a closer look

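Gaps between the farthest array of a group of 5 and its nearest neighbour, as a share of the group's range, were above 0.71 in 12 of the 72 groups examined (probes of the 10 genes and gene lists), where chance gives about 1 in 20. The groups share their arrays and are not independent, so that rate does not gauge the count of 12. SCC replicate 2 was the low array in 10 of the 12. Among the genes these were Klf4 (0.839), both Klf6 probes (0.789 and 0.734) and 2 Myc probes (0.812 and 0.832). Among the lists they were squamous and basal cell markers (0.909), neutrophil markers (0.929), heat shock genes (0.914), macrophage markers (0.818) and proliferation markers (0.771). The array was nearer to WT than the other SCC arrays for Myc and for the squamous and proliferation lists, and farther from WT for Klf4 and Klf6. The other 2 were WT replicate 1, low for Ier2 (0.807), and WT replicate 5, high for the second Klf6 probe (0.718). For the neutrophil list it was above WT at 10.82, but over the 7 markers other than Ltf it was at 9.76, below the WT range of 9.89 to 10.81. No cause was tested.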

How the results depend on the processing

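With slide as a fixed block, the genes among the 10 that passed came to 2 in place of 8, 1 higher (Myc) and 1 lower (Klf2 by its brighter probe), and of all genes 2326 passed in place of 8402, and 1818 in place of 3887 with at least 2-fold difference. That fit rests on 1 WT array against 3 SCC arrays. The direction turned for Klf2 with its dimmer probe (0.89), and for Egr3 with 75th percentile scaling (0.015), array weights (0.13) and without both SCC replicates 2 and 5 (0.16), its values with arrays left out ranging from -0.53 to 0.16. Leaving out each array in turn, 7 to 8 of the 10 genes passed, Egr2 being the one lost, and 2 to 4 with at least 2-fold difference. Egr2 also failed in the methods' t-test after adjustment (0.051), and Nr4a1 passed with array weights (-0.40, adjusted p = 0.044). With the replicate number as a block 8 of the 10 genes and 6945 of all genes passed, although the numbers do not pair the samples. Scaling to the 75th percentile moved the median of all genes by 0.072. Under it the higher and lower counts of the 10 genes were 4 and 4. With slide as a block, the further immediate early genes that passed came to 5 higher and 3 lower, the known MYC targets to 3 higher, the heat shock genes to 1 higher and the AP-1 genes to 2 higher and 1 lower. The regulators came to 3 higher and 2 lower, the other KLF genes to 1 higher and 3 lower, the MYC partners to 1 higher and 2 lower and the known KLF2 targets to 3 lower. Of the marker lists in that fit, squamous (7), proliferation (5), neutrophil (1) and fibroblast (1) genes were higher. Endothelial (8), T cell, B cell, alveolar type 1 and smooth muscle genes (3 each) were lower, and no macrophage, alveolar type 2, club, ciliated or cardiac gene passed. Without SCC replicate 2, 7 neutrophil markers were higher in place of 5. The number of arrays and the slides limit what can be called.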

Other observations

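With each gene centred on its mean over the 10 arrays, the profile of the AP-1 gene Fosb was the nearest to that of Egr3 among the tested genes (root mean square distance 0.15 log2 units). Both of these genes were dim (WT means of 6.71 for Fosb and 6.58 for Egr3), and Tafa3 was close behind (0.16). Egr3 left the WT range only on SCC replicates 2 and 5, the arrays that stood apart. For Klf4 the nearest profile was that of Hilpda and the next that of Klf6 (both 0.17). These distances describe the shape of the profiles and not their levels, and carry no test.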
